A study of Microtus ochrogaster with 23 samples.

Results

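Shores are the flanks of CpG-dense stretches of DNA. They were defined here on windows of 1 kb outside chromosome X in reduced-representation bisulfite sequencing (RRBS) data from the dentate gyrus (DG) of prairie voles (Microtus ochrogaster). A cytosine was called good where 4 or more animals in every one of the 4 groups read it 10 times or more. A core was a window with at least 30 cytosines read at least 10 times in all 23 animals, and a shore was a window with 3 to 15 good cytosines that lay 1 or 2 windows from a core on the same chromosome or scaffold. This rule, which uses the depth and the number of cytosines and not their methylation, gave 1960 shores of 50389 windows with at least 3 good cytosines. Of these, 1529 lay 1 window and 431 lay 2 windows from the nearest of 3590 cores, and they held 14823 good cytosines. The 29698 windows with 3 to 15 good cytosines that lay farther from any core, or on a scaffold without one, are called remote windows and served as the comparison.

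All animals were adult wild-type voles, with 1 library per animal, so that the animal was the replicate. “Attacker” (n = 6) and “Parental” (n = 6) voles were virgin males that attacked or cared for an unfamiliar pup. “Father” (n = 5) voles were males and “Mother” (n = 6) voles were females that had been paired and had a litter, so that the “Father” vs “Mother” comparison is also one of males and females. The virgin males were sorted by their own response to the pup and not assigned to it, and the tissue was a punch of the DG that holds several cell types. A difference in the mix of cell types cannot be told apart from a difference within cells in such samples.

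In most mammalian tissues, methylation is found at CpG sites. Dense runs of CpGs, the CpG islands, cover the start of many genes and are mostly unmethylated, whereas isolated CpGs in the rest of the genome are mostly methylated. The shores are the stretch in which one state passes into the other. They have been studied because differences between tissues are often found there and not in the islands themselves. RRBS reads fragments cut by the enzyme MspI at CCGG, so that it covers dense CpGs far better than shores, and the shores analysed here are those that lie close to MspI sites.

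A library held between 64896224 and 129376223 calls of a CpG in a read, and its median depth at a covered cytosine lay between 19 and 43 reads. Shore cytosines were read about as deeply as core cytosines. The median depth of a good cytosine in an animal was between 29 and 83 reads in shores (median over animals 52) and between 25 and 87 reads in cores (median 52), against a median of 45 in remote windows. A shore held 7 good cytosines in the median, and the reads over all its good cytosines numbered 398.5 per animal in the median. “Attacker” 6 stood apart in the share of methylated calls over all its cytosines, with 38.7% against 8.32% to 24.6% in the other “Attacker” libraries. The differences in mean shore level between “Attacker” and “Parental” or “Father” voles are given with and without it. Values of single shores and correlations within groups include it.

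The methylation level rose with the distance from the core. A cytosine's level was its methylated reads divided by all its reads, and the level of a class in an animal is the mean over its cytosines with at least 10 reads. It was 0.932% ± 0.0543 (SD, n = 23 animals) in cores, 5.52% ± 0.469 at 1 window, 12.7% ± 0.996 at 2 windows and 25.9% ± 2.26 in remote windows. Remote windows that lay 3 to 5 windows from a core were between, at 18.6% ± 1.61. Cores, shores at 1 window, shores at 2 windows and remote windows did not overlap between animals, and each was higher than the class before it in 23 of 23 animals. Shores at 1 window ranged from 4.91% to 6.99% over the animals and shores at 2 windows from 10.6% to 15.6%. The windows are the same in all animals, so the tests within animals measure agreement between animals and not the spread over loci. The step within an animal was 4.59 percentage points ± 0.421 (SD) from core to 1 window, 7.20 ± 0.634 from 1 to 2 windows and 13.2 ± 1.42 from 2 windows to remote windows (sign-flip permutation tests over the 23 animals, two-sided, p = 2e-05 for each, which is the smallest value that 100000 resamples give when the smaller tail is doubled; adjusted p = 2.15e-05 over 28 within-animal tests).

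**Figure D1:**
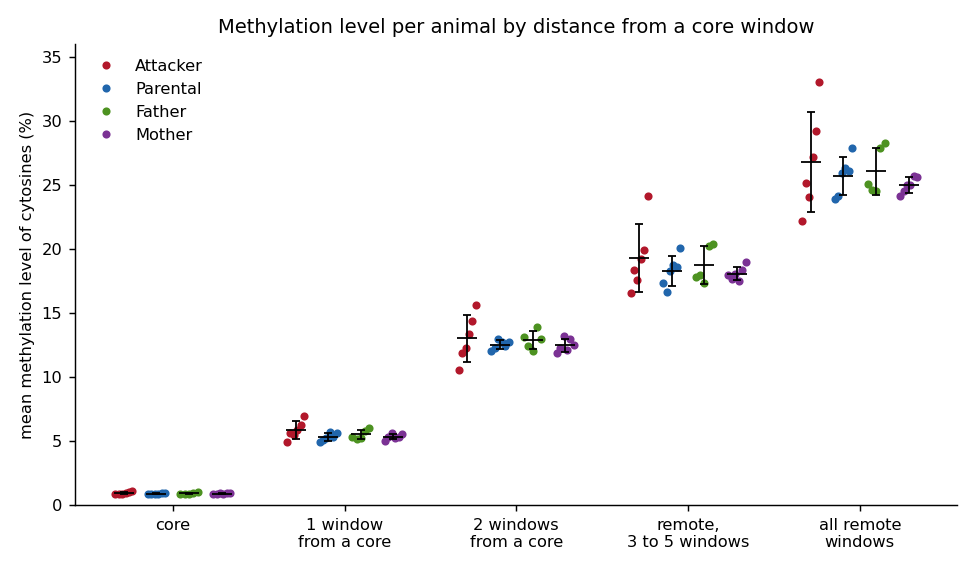
Mean methylation level of cytosines (%) in each animal, by class of window on the x axis and coloured by group, with black bars for the mean and SD of a group. The points rise from about 1% in cores through 5.52% at 1 window and 12.7% at 2 windows to 25.9% in remote windows, and the groups overlap in every class.

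On a scale of base pairs the rise began close to the core. Distances were taken from each shore cytosine to the nearest cytosine of a core that was read in all animals. In the first 200 bp, which held 5137 of the shore cytosines, the level was 1.80% ± 0.163 (SD, n = 23), and 96.0% of these cytosines had a mean level under 10%. The level was 4.82% ± 0.431 from 200 to 400 bp, 8.35% ± 0.909 from 400 to 600 bp and 11.1% ± 1.03 from 600 to 800 bp. Every one of these steps was upward in 23 of 23 animals (permutation test, p = 2e-05 each). From 800 to 1000 bp the level was 12.3% ± 1.34, and the rise then stopped. At 1000 to 1200 bp the level was 10.8% ± 0.958, which was higher than in the bin before it in 1 of 23 animals. Windows at both distances contribute to the bins from 1000 to 2000 bp, and only shores at 2 windows to those from 2000 bp on. The bins past 1000 bp thus do not hold the same shores as those nearer to the core. The levels at 1000 to 1200 bp and at 2000 to 2200 bp also come from different sets of shores. The level was 19.4% ± 2.63 at 2000 to 2200 bp, higher than at 1000 to 1200 bp by 8.57 points ± 2.21 (23 of 23 animals, permutation test, p = 2e-05). The median cytosine stayed lower than the mean, at 0.433% in the first bin and 5.54% at 2000 to 2200 bp, where 60.6% of cytosines were still under 10%.

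**Figure D2:**
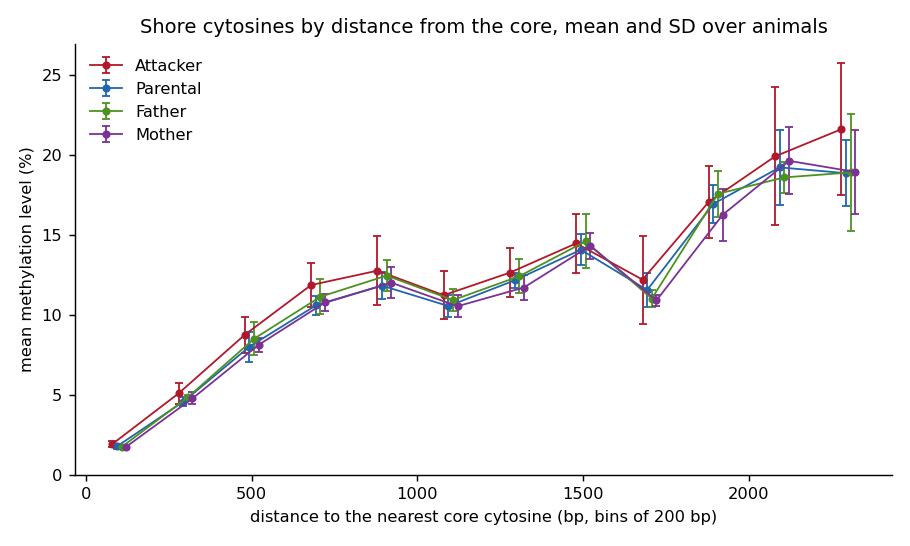
Mean level of shore cytosines (%) in bins of 200 bp by their distance to the nearest core cytosine, as the mean and SD over the animals of each group. The 4 curves rise together from 1.80% in the first bin to 12.3% at 800 to 1000 bp, dip to 10.8% in the next bin and reach 19.4% at 2000 to 2200 bp over all animals.

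Most shores were hypomethylated like their cores, and a small part was methylated. Per window, as the mean over its cytosines and the animals, the median level was 0.548% in cores, 1.31% at 1 window, 6.92% at 2 windows and 21.1% in remote windows. Of the 1960 shores, 1490 (76.0%) lay under 10%, 388 (19.8%) between 10% and 50% and 82 (4.18%) above 50%. The share under 10% was 81.2% at 1 window and 57.5% at 2 windows, against 35.4% of remote windows. The share above 50% was 2.49% at 1 window and 10.2% at 2 windows, against 28.4% of remote windows. Of single shore cytosines, 82.6% had a mean level under 10% and 0.641% a mean level above 90%.

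**Figure D3:**
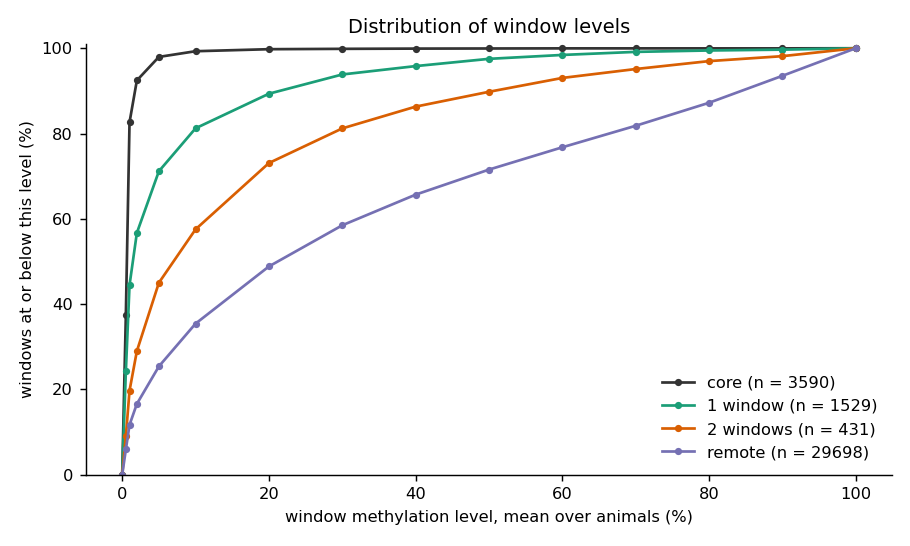
Cumulative share of windows (%) at or below a methylation level (%, mean over animals) for cores, shores at 1 and 2 windows and remote windows. The curves are ordered by distance from the core, with 81.2%, 57.5% and 35.4% of windows under 10% at 1 window, 2 windows and remote windows.

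The number of good cytosines in a window varied with its level, but the order of the classes was the same at a given number. In shores at 1 window with 3 to 5 good cytosines the level was 9.81% ± 0.964 (SD, n = 23), with 6 to 10 it was 5.94% ± 0.547, and with 11 to 15 it was 3.22% ± 0.247. The corresponding levels at 2 windows were 22.6% ± 2.26, 12.6% ± 1.05 and 7.16% ± 0.701, and in remote windows they were 39.3% ± 3.10, 22.8% ± 2.01 and 12.3% ± 0.948. Within each of these ranges, 2 windows exceeded 1 window and remote windows exceeded 2 windows in 23 of 23 animals (permutation tests, p = 2e-05 each).

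The step between the distances was also seen along single flanks. On 92 flanks both the first and the second window were shores, and the second window was higher on 70 of them. The median level on these flanks was 2.51% in the first and 10.8% in the second window. The second exceeded the first by more than 10 points on 34 flanks, and the first exceeded the second by as much on 4. Next to a run of 2 cores the 79 shores at 1 window had a level of 6.16% ± 0.828, against 5.50% ± 0.478 in the 1445 shores next to a single core. The level next to a single core minus that next to a run of 2 was −0.659 points. This difference was positive in 5 of 23 animals (permutation test over animals and not over shores, p = 0.00062). Shores at 1 window tended to be higher where the core was higher, with a Spearman correlation of 0.339 over 1529 shores that share their libraries. The median was 1.01% in the 1261 of these shores whose core was under 1%, 5.92% in the 254 beside a core of 1% to 10% and 19.3% in the 14 beside a core of 10% or more. At 2 windows the corresponding correlation was 0.0665 over 431 shores.

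The left and right flanks of a core often differed. For 182 cores or runs of cores, both neighbouring windows were shores. Their levels were little related (Spearman correlation 0.130 over the 182 pairs, which share their libraries). Both flanks were under 10% at 110 of them, 1 of the pair was at 10% or more at 60 and both were at 10% or more at 12. The flanks differed by less than 5 points at 98 cores and by more than 20 points at 36.

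The most unequal flanks were at Sirt6, Mlec and a core on an unplaced scaffold. Sirt6 encodes a NAD-dependent deacetylase of histones. Its core on linkage group LG1 had a shore within the gene (2192000 to 2192999 in MicOch1.0) that lay between 0% and 2.11% in every animal, with a mean of 0.236%. The shore on the other side (2190000 to 2190999, 605 bp outside the gene span) had a mean of 91.3%, with the lowest animal at 57.4% and the highest at 100%. The levels of these flanks did not overlap in any pair of animals. These cores were chosen as the most unequal of the 182, so the separation follows in part from that choice. The high flank of Sirt6 had as few as 23 reads in an animal and 0 cytosines read 10 times in all animals. Mlec, which encodes the endoplasmic reticulum lectin malectin, had on chromosome 2 a shore within the gene (5054000 to 5054999) with a mean of 1.43% and a shore 505 bp outside its span (5056000 to 5056999) with a mean of 91.8%. In the inner shore of Mlec 1 animal, “Attacker” 5, had 13.3%, against at most 3.01% in all others. The outer shore of Mlec had as few as 14 reads in an animal and 0 cytosines read 10 times in all animals. The core on the scaffold had flanks of 1.71% and 82.7%, but both lacked a level in some animals, because fewer than 10 reads covered them there.

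Shores could be placed relative to genes on the chromosomes and linkage groups with a gene table, which held 1420 of them. The table gives the start and end of a gene but neither strand nor exons, so the start of a gene cannot be told apart from its end. A gene boundary fell in 10.6% of these shores and in 62.0% of the 2657 cores. Shores within a gene made up 56.1% and shores between genes 33.4%. At 1 window, the level was 3.54% ± 0.440 (SD, n = 23) in the 125 shores with a gene boundary, 5.11% ± 0.439 in 630 shores within genes and 6.93% ± 0.591 in 364 shores between genes. At 2 windows the levels were 9.10% ± 1.34 (25 shores), 11.4% ± 1.29 (166 shores) and 13.4% ± 1.23 (110 shores). Shores within genes exceeded those with a gene boundary in 23 of 23 animals at either distance, and at 1 window shores between genes exceeded those within genes in all animals (permutation tests, p = 2e-05 each). At 2 windows, shores within genes were higher than shores between genes in 2 of 23 animals. In each of the 3 positions, shores at 2 windows were higher than shores at 1 window in 23 of 23 animals (permutation tests, p = 2e-05 each). The tests by position cover agreement between animals only. The spread between shores was not tested, and 25 shores alone had a gene boundary at 2 windows.

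Single shores varied between animals. For single windows, the level is the share of methylated reads over all its good cytosines, given in an animal with at least 10 such reads, which held for all 23 animals in 1741 shores. The standard deviation within groups was 2.45 points in the median shore, beside a binomial counting error of 0.664 points, which takes reads as independent molecules. It was 1.60 points in the 1492 shores under 10%, 11.4 points in the 385 shores of 10% to 50% and 15.1 points in the 83 shores above 50%. The lowest and highest animals differed by more than 50 points in 198 shores (10.1%), against 33.9% of remote windows and none of the 3590 cores. At levels of 10% to 50% this share was 36.4% of shores and 53.4% of remote windows, whereas above 50% it was 61.4% of shores and 48.3% of remote windows. Among the 610 shores with at least 5 cytosines read 10 times in all animals, 8 had such a range, so that most of the 198 were windows with fewer deeply read cytosines.

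The extremes were taken among these 610 shores. The highest mean level was 68.9%, at chromosome 15, 42569000 to 42569999, with no gene within 5 kb. It ranged from 34.2% in a “Mother” to 84.8% in a “Father” vole. The next was a shore within Xrcc1, the scaffold protein of single-strand break repair (LG4, 19589000 to 19589999), with a mean of 68.2% and a range over the animals of 38.5 points. After it came a window on an unplaced scaffold with a mean of 65.9%, which also had the largest range between animals of all 610 shores, 66.1 points. It was read 431 to 4913 times per animal and was lowest in a “Father” vole (23.7%) and highest in “Attacker” 6 (89.8%). The next highest animal there was “Father” 1 (88.5%). The other large ranges were 62.4 points at a shore 676 bp from Notch1, a receptor that keeps neural stem cells in their undifferentiated state, and 62.2 points at a shore on another unplaced scaffold. The shore near Notch1 (chromosome 4, 50801000 to 50801999) had levels of 0% to 58.6% (median 25.2%) in “Parental”, 35.6% to 52.3% (median 39.1%) in “Attacker”, and 29.7% to 62.4% (median 36.7%) in “Mother” voles. The “Father” values were 34.5%, 36.5%, 37.9%, 12.8% and 32.8%, so that all groups overlapped. The lowest means were 0.0125% on an unplaced scaffold, 0.0854% near Tmem131l and 0.0856% near Trim8, an E3 ubiquitin ligase, where 2, 4 and 3 of the 23 animals had any methylated read.

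The shore level did not separate the groups. The study compared these animals to ask how methylation in the DG relates to the response of males to pups and to parenthood. Over all shore cytosines, the level was 7.33% ± 0.948 (SD, n = 6) in “Attacker”, 6.81% ± 0.318 (n = 6) in “Parental”, 7.05% ± 0.406 (n = 5) in “Father” and 6.84% ± 0.261 (n = 6) in “Mother” voles. The values ran from 6.08% to 8.80% in “Attacker”, from 6.36% to 7.15% in “Parental”, from 6.66% to 7.52% in “Father” and from 6.47% to 7.19% in “Mother” voles, so that all groups overlapped. The difference was 0.523 points in “Attacker” vs “Parental” (exact permutation test, two-sided, p = 0.227), 0.280 points in “Attacker” vs “Father” (exact p = 0.571), −0.243 points in “Parental” vs “Father” (exact p = 0.312) and 0.220 points in “Father” vs “Mother” (exact p = 0.316). Together with the levels at either distance, the step between them and the excess over the core, 20 such tests were made, and the smallest adjusted p was 0.632. The step from 1 to 2 windows was 7.17 points ± 1.14 in “Attacker”, 7.20 ± 0.258 in “Parental”, 7.35 ± 0.556 in “Father” and 7.12 ± 0.365 in “Mother” voles (exact permutation tests, p between 0.420 and 0.944). Without “Attacker” 1, which had the lowest shore level of all, the “Attacker” vs “Parental” difference was 0.775 points (exact permutation test, unadjusted p = 0.0433). Without “Attacker” 6, which had the highest, it was 0.231 points (exact permutation test, p = 0.455), and the “Attacker” vs “Father” difference was −0.0123 points (exact permutation test, p = 0.984).

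The shore level followed the level of remote windows in the same animal. Over the 23 animals the correlation was r = 0.957 and Spearman's rho = 0.879 (permutation tests, p = 1e-05 each, the smallest that 100000 resamples give when absolute correlations are counted without doubling a tail; adjusted over 3 such relations 1.5e-05 and 3e-05). Without the animals farthest from the median remote level r was 0.892. Within groups of 6 it was 0.993 in “Attacker”, 0.928 in “Parental” and 0.694 in “Mother” voles. The shore level also moved with the core level (r = 0.890 and rho = 0.845, permutation p = 1e-05 and 2e-05; r = 0.814 without the animals farthest from the median core level) and was lower in more deeply read libraries (r = −0.641 and rho = −0.742 with the median depth, permutation p = 0.00222 and 8e-05; r = −0.754 without the libraries farthest from the median). The part that depth and the methylation of the whole library have in the differences between animals was not tested, and the labels name no batch. Divided by the level of remote windows of the same animal, an alternative chosen after the data had been seen, the shore level was 0.274 ± 0.00619 in “Attacker” and 0.265 ± 0.00575 in “Parental” voles (exact permutation test, two-sided, p = 0.0152, adjusted over the 4 comparisons 0.0606). The p of this ratio ranged from 0.00216 to 0.708 over the other definitions of levels, cores and coverage.

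**Figure D4:**
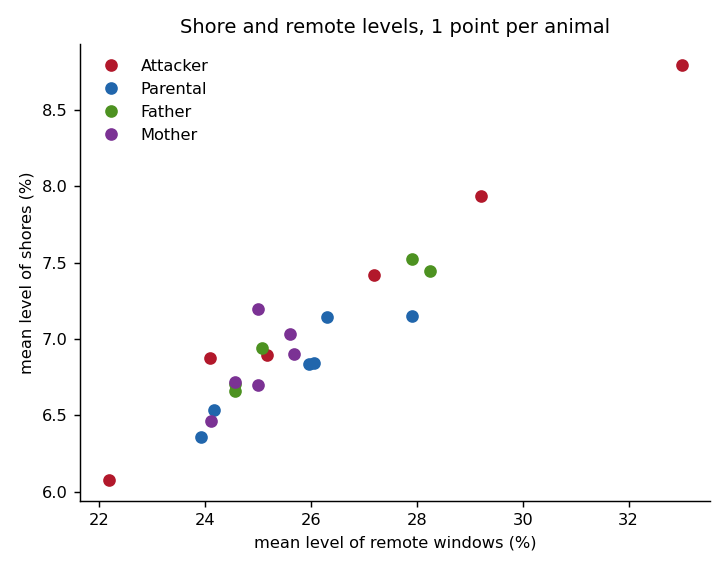
Mean level of shores (%) against mean level of remote windows (%), with 1 point per animal coloured by group. The points lie along a rising line (r = 0.957), with “Attacker” 1 at the lower and “Attacker” 6 at the upper end.

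No single shore differed between groups in the test across all windows. Methylated and unmethylated reads were summed over the good cytosines of a window and compared with the quasi-likelihood test of edgeR, with p-values adjusted over the 50273 windows that held reads of both kinds, among them 1944 shores. At an adjusted p under 0.05, 0 shores were called in each of the 4 comparisons. Of all windows tested, 0.0159% were called in “Father” vs “Mother” and 0% in each of the other comparisons. At an unadjusted p under 0.05 there were 74 shores in “Attacker” vs “Parental” (3.81% of shores, against 2.98% of all windows), 85 in “Attacker” vs “Father” (4.37% against 3.25%), 79 in “Parental” vs “Father” (4.06% against 2.78%) and 83 in “Father” vs “Mother” (4.27% against 3.57%). The share was above that of all windows in each comparison, but this difference was not tested. With limma on arcsine-transformed levels, 112, 99, 98 and 87 shores (5.76%, 5.09%, 5.04% and 4.48%) passed the unadjusted threshold in the 4 comparisons, against 4.92%, 4.99%, 3.99% and 4.82% of all windows. At its adjusted threshold 0 shores passed, against 0.00199%, 0%, 0.00199% and 0.225% of all windows. A beta-binomial Wald test fitted to the compared groups alone gave 0, 2, 3 and 3 shores at an adjusted p under 0.05 in the same order (0%, 0.103%, 0.154% and 0.154% of shores), against 0.0278%, 0.0557%, 0.0736% and 0.446% of all windows.

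The shores called by the beta-binomial test are named here after their values had been seen. A shore within B3gnt9, which encodes a glycosyltransferase (chromosome 4, 5670000 to 5670999, 4 good cytosines), was called in both “Attacker” vs “Father” and “Father” vs “Mother”. Its “Father” values were 44.2%, 43.8%, 36.6%, 34.9% and 36.9%, above all “Attacker” voles (13.5% to 31.3%) and all “Mother” voles (18.6% to 29.2%). The “Parental” voles had 24.3% to 42.7%. For B3gnt9 the beta-binomial adjusted p was 0.000978 in “Attacker” vs “Father” and 0.000408 in “Father” vs “Mother”, and edgeR called it in neither. A shore within Rbms3, an RNA-binding protein, had 44.7% to 79.2% in the 5 “Attacker” voles with a level and 33.3%, 20.8%, 25.8%, 0% and 30.8% in “Father” voles (adjusted p = 5.41e-05 by the beta-binomial test, not called by edgeR), but had as few as 9 reads in an animal. In “Parental” vs “Father” the called shores were those near Lama5, within Lnpep and near a predicted gene on chromosome 7. The last 2 had as few as 9 and 4 reads in an animal and 0 cytosines read 10 times in all animals. At Lnpep the groups overlapped, with “Father” 1 at 20% and “Parental” voles at 14.9% to 20%. In the chromosome 7 shore they did not, with “Father” voles at 0% to 2.67% and “Parental” voles at 9.92% to 25.4%. In “Father” vs “Mother” the called shores included the scaffold shore with the smallest p in edgeR and a shore within Foxp2, a transcription factor of neural circuits for vocal learning. The 4 “Father” voles with a level at Foxp2 had 45.6%, 51.7%, 36% and 63.9% and the 5 “Mother” voles 0% to 25% (adjusted p = 0.0165 by the beta-binomial test, not called by edgeR), with 64 reads in the median animal and 0 in the lowest.

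Few shores had levels that did not overlap between the groups. Their number was 0 in “Attacker” vs “Parental” (against 0.241% of all windows, 0.149% with the higher level in “Attacker” and 0.0915% in “Parental” voles). It was 9 in “Attacker” vs “Father” (0.463% of shores against 0.372% of all windows), of which 6 were higher in “Attacker” (background 0.203%) and 3 in “Father” voles (background 0.169%). In “Parental” vs “Father” it was 8 (0.412% against 0.412%), with 5 higher in “Parental” (background 0.227%) and 3 in “Father” voles (background 0.185%). In “Father” vs “Mother” it was 10 (0.514% against 0.666%), with 6 higher in “Father” (background 0.241%) and 4 in “Mother” voles (background 0.426%). An unadjusted p under 0.05 in edgeR together with a difference over 15 points was met by 7, 6, 8 and 9 shores in the 4 comparisons, or 0.36%, 0.309%, 0.412% and 0.463% of shores, against 0.601%, 0.67%, 0.497% and 0.776% of all windows. The median difference over the tested shores was 0.140 points in “Attacker” vs “Parental” and 0.0769 points in “Attacker” vs “Father”, against 0.0789 and 0.0759 points over all windows, and it was 0 in the other comparisons.

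The shores with the smallest p in “Attacker” vs “Parental” lay in or near Spag5 and Cry1 and on an unplaced scaffold, and all were at low levels. In the shore within Spag5, which encodes a protein of the mitotic spindle (chromosome 7, 20803000 to 20803999), “Attacker” voles had 0% to 5.05% (median 1.28%) and “Parental” voles 0% to 0.946% (median 0%), a difference of 2.05 points (edgeR, adjusted p = 1). In the shore 677 bp from Cry1, a repressor of the circadian clock (chromosome 24, 36130000 to 36130999), 5 of 6 “Attacker” voles were at 0% and “Attacker” 6 was at 1.97%, whereas “Parental” voles had 0.310% to 3.63% (median 1.98%), a difference of −1.67 points (edgeR, adjusted p = 1). On the scaffold all “Attacker” voles were at 0% and “Parental” voles reached 1.67% (edgeR, adjusted p = 1).

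In “Attacker” vs “Father” the leading shores were near Casp9, within Rdh10 and near Eed. Casp9 is the initiator caspase of the mitochondrial pathway of cell death. In the shore beside it (chromosome 10, 43076000 to 43076999) all “Attacker” voles were at 0% and the “Father” values were 13.9%, 0%, 6.71%, 5.52% and 7.87% (edgeR, difference −6.80 points, adjusted p = 1). The shore within Rdh10, an enzyme of retinoic acid synthesis (LG5, 11834000 to 11834999), was at 0% to 0.615% (median 0%) in “Attacker” voles, and the “Father” values were 6.15%, 3.12%, 0.360%, 2.25% and 7.41% (edgeR, adjusted p = 1). Eed is a core subunit of Polycomb repressive complex 2. In the shore 331 bp from it (chromosome 22, 6277000 to 6277999) the direction was the other one, with all “Father” voles at 0% and “Attacker” voles at 0% to 13.1% (median 2.42%) (edgeR, difference 4.73 points, adjusted p = 1). Groups touched or overlapped in each of these 3 shores.

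In “Parental” vs “Father” the differences were larger in the leading shores near Lama5 and within Clip2, but small within Sdhd. The shore 309 bp from Lama5, a laminin chain of the basement membrane (LG8, 1632000 to 1632999), had 6.34% to 22.7% (median 8.45%) in “Parental” voles, and the “Father” values were 54.4%, 22.2%, 36.7%, 30.8% and 33.0%. The groups overlapped by a single pair of animals, and the difference was −23.9 points (edgeR, adjusted p = 1). The “Attacker” voles had 10.7% to 34.1% (median 18.1%) and the “Mother” voles 12% to 38.0% (median 21.3%) in this shore. The 34.1% was that of “Attacker” 6, with 21.7% in the next “Attacker” vole. In the shore within Clip2, which encodes a linker of microtubules to organelles (chromosome 2, 23062000 to 23062999), 5 of 6 “Parental” voles were at 0% and the highest at 4.88%, and the “Father” values were 32.8%, 6.16%, 3.33%, 46.2% and 54.5% (edgeR, adjusted p = 1). An “Attacker” vole had only 3 reads in this shore, so that no level is given for it, and “Attacker” 6 stood at 50.6% there against at most 4.17% in the others. The Clip2 shore held 3 good cytosines, of which 0 were read 10 times in all animals. The shore within Sdhd, a membrane anchor subunit of succinate dehydrogenase, was at 0% in all “Parental” voles and reached 3.92% in “Father” voles (edgeR, adjusted p = 1).

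In “Father” vs “Mother” the leading shore lay on an unplaced scaffold (5392000 to 5392999), 1 window from its core, with 10 good cytosines and 514 to 2558 reads per animal. The “Father” values were 21.5%, 18.9%, 13%, 20.1% and 11.2%, and the “Mother” voles had 2.28% to 9.62% (median 5.11%). The groups did not overlap, and the difference of 11.4 points had the smallest p of all shores in any comparison (edgeR, adjusted p = 0.539). The virgin males were in the range of the fathers, with 12.8% to 17.3% (median 15.9%) in “Attacker” and 9.87% to 20.7% (median 14.3%) in “Parental” voles. The lowest of the 17 males was thus above the highest female, by less than 1 point. Sex was not compared as such. Unplaced scaffolds were kept whatever chromosome they belong to, and whether this one belongs to a sex chromosome was not tested. The shore within Kpna2, an importin of nuclear transport (chromosome 7, 59721000 to 59721999), went the other way, with 0% to 5.41% (median 3.26%) in “Mother” voles and 0.284% in 1 and 0% in 4 of the “Father” voles (edgeR, difference −3.05 points, adjusted p = 0.544). No “Attacker” or “Parental” vole exceeded 0.549% in it. The Kpna2 shore had as few as 12 reads in an animal and 0 cytosines read 10 times in all animals. The next shore, on another scaffold, was at 0% in all “Mother” voles and reached 5.97% in a “Father” vole (edgeR, adjusted p = 1).

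**Figure D5:**
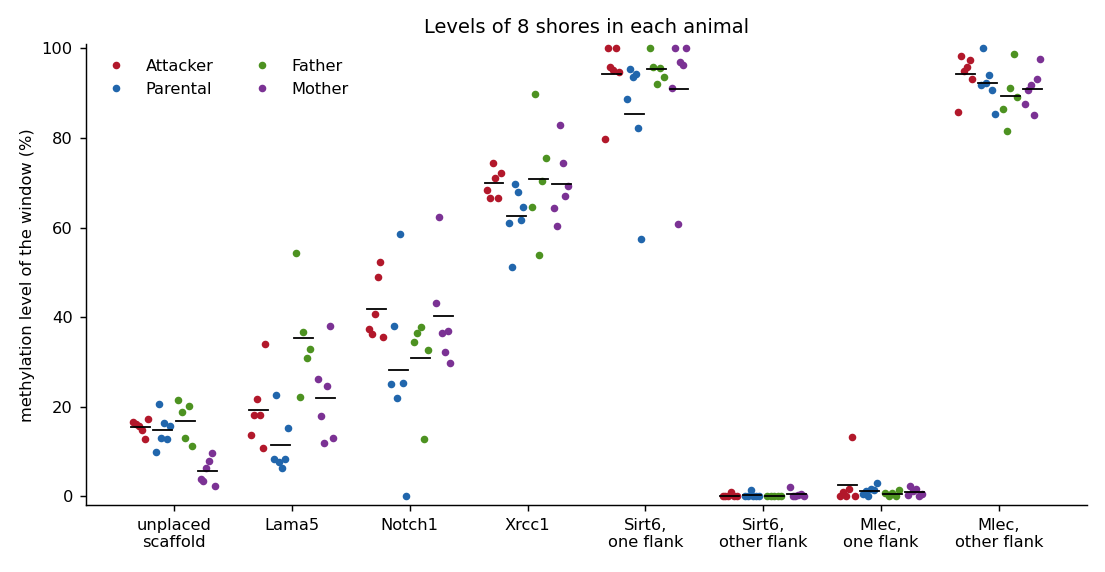
Methylation level (%) of 8 shores in each animal, coloured by group, with black lines for group means. In the scaffold shore at the left all “Mother” voles lie under all males, near Notch1 and Lama5 the groups overlap, and the low and high flanks of Sirt6 and Mlec do not overlap in any animal.

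Shores were assigned to the genes they overlap, otherwise to the nearest gene within 5 kb, which named genes for 1379 of them. The gene lists below are of interest in the DG and in social behavior, and 0 of their shores were called in any comparison at an adjusted p under 0.05 (edgeR). The Wnt pathway, which controls the birth of granule neurons through Frizzled receptors and beta-catenin, had 16 shores at 10 genes, with a median level of 1.93% against 1.77% over the 1420 shores on chromosomes with a gene table. Its receptor genes showed the profile of a shore in single loci. At Fzd9 the first window on one side was at 0.0494% and the second at 14.9%, and at Fzd10 the first was at 1.56% and the second at 12%. The other side of Fzd9 held the highest of the Wnt shores, at 16.1% within the gene. The shores of Fzd3, Vangl1 and Gsk3b were under 1%. Of the Wnt shores, 1 passed an unadjusted p under 0.05 in “Attacker” vs “Parental” and 0 did so in the other comparisons, against 60, 65, 59 and 63 of the 1420 shores with a gene table. The Wnt shore that passed lay 539 bp from Gsk3b, the kinase that marks beta-catenin for degradation, where “Attacker” 4 had 8.89%, “Attacker” 3 had 1.3% and all other “Attacker” and all “Parental” voles had 0% (edgeR, adjusted p = 1). The second shore of Gsk3b followed in “Attacker” vs “Father” (edgeR, adjusted p = 1).

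The list of neuropeptide, monoamine and steroid signalling had 5 shores at 4 genes. Those at Chrna7, a nicotinic acetylcholine receptor subunit, at Htr1b, a serotonin receptor, and at Fkbp5, a chaperone of the glucocorticoid receptor, were at 0.472% to 2.27%. The shore 2 windows from a core at Kiss1r, the kisspeptin receptor, was at 12.7%. None of the 5 passed an unadjusted p under 0.05 in any comparison, and those with the smallest p were at Chrna7 in “Attacker” vs “Parental” and at Htr1b in “Father” vs “Mother” (edgeR, adjusted p = 1 for both).

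The genes of DNA methylation and demethylation had 6 shores at 5 genes, all under 10%. At Gadd45b, which takes part in active demethylation in neurons, the first window was at 0.451% and the second, within the gene, at 8.79%. At Tdg, the glycosylase that removes oxidized methylcytosine, the shore had 23.2% in “Attacker” 5 and 12.4% in “Attacker” 1 but 0% in 4 “Attacker” voles and in all “Father” voles. The smallest p on the list were at Gadd45b in “Parental” vs “Father” and at Tdg in “Attacker” vs “Father” (edgeR, adjusted p = 1 for both).

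Genes of DG neurons and neurogenesis had 15 shores at 13 genes and a median level of 4.38%, with 5 shores at 10% or more against 321 of the 1420 shores with a gene table. The highest were at Dll1, a ligand of Notch receptors (45.8%), at Notch1 (35.5%) and at Nrg1, a ligand of ErbB receptors (25%), whereas the shore at Hes1, a target of Notch signalling, was at 0.254%. In the other shore of Notch1, which lies within the gene, all “Father” voles were at 0% and “Attacker” voles at 0% to 5.00% (median 1.14%) (edgeR, adjusted p = 1). Near Neurog2, a factor of granule cell progenitors, “Attacker” voles had 0% to 29.9% (median 12.8%), and the “Father” values were 0%, 8.82%, 6.75%, 0% and 0% (edgeR, adjusted p = 1). The 29.9% was that of “Attacker” 6, with 18.4% in the next “Attacker” vole. Of the 15, 0 had an unadjusted p under 0.05 in “Attacker” vs “Parental” and 1 in each other comparison, against 60, 65, 59 and 63 of the 1420 shores in the 4 comparisons.

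Imprinted genes, which are methylated on 1 parental allele at their control regions, had 4 shores at 5 genes, with a median level of 8.40%. The means were 1.34% at Zdbf2, 8.10% at Kcnk9, 8.69% at Blcap and Nnat and 11.7% at Kcnq1. The shore at Blcap and Nnat, which overlap, had 3 “Parental” voles at 26.9%, 35.2% and 59.8% and 2 at 0%, against at most 4.39% in “Attacker” voles (edgeR, adjusted p = 1), and rested on at most 162 reads per animal with no level in 3 animals. The shore within Kcnq1, a potassium channel gene, had 3.67% to 13.4% in “Mother” voles and 15.1%, 16%, 11.1%, 9.29% and 12.9% in “Father” voles (edgeR, adjusted p = 1). Developmental transcription factors were listed by the start of the gene symbol, such as Hox, Pax or Fox, which also took in Paxbp1. Islands of such factors are often long and bound by Polycomb proteins. The list had 48 shores at 37 genes, with a median of 3.80% and 11 at 10% or more. The highest were within Foxp2 (35.5%) and Foxf2 (30.3%), whereas the other shore of Foxf2 was at 1.02%. Near Hoxd12 “Father” voles had 3.27%, 4.85%, 7.48%, 4.89% and 5.92% and “Mother” voles 0% to 3.21% (median 1.73%), so that these groups did not overlap (edgeR, adjusted p = 1). Near Pax7 all “Attacker” voles were at 0% and “Parental” voles reached 4.17% (edgeR, adjusted p = 1). Of the 48, 3, 2, 3 and 2 shores passed the unadjusted threshold in the 4 comparisons, against 60, 65, 59 and 63 of the 1420 shores with a gene table. Apart from the genes with the smallest p, the genes named in these lists were picked after their values had been seen.

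Markers of cell types lay at few shores. Neuronal markers had 2, both at Gad2, the enzyme of GABA synthesis, at 1.23% and 1.5% (edgeR, adjusted p = 1 for both in “Attacker” vs “Parental”). Astrocyte markers had 1, within Sox9 and at 1.17%, which passed the unadjusted threshold in “Parental” vs “Father” (edgeR, adjusted p = 1). Markers of oligodendrocytes, microglia and endothelium had 0, so that shores cannot check the mix of cells in the punches.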

How the data were processed

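RRBS libraries were made from DG punches of 23 voles after digestion with MspI. Per the labels and the study's methods, the authors trimmed reads with Trim Galore in its RRBS mode, aligned them to the MicOch1.0 assembly with Bismark and deposited, for each cytosine, the count of all reads and the count of methylated reads, without normalisation. The files carry no molecular identifiers, so that PCR copies cannot be told from separate molecules, and counting errors cover only the sampling of reads.

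Groups were taken from the labels. The sequence named chromosome X was left out, which left 4009380 cytosines. Unplaced scaffolds were kept, although some may belong to a sex chromosome. The members of the analysis and the gene lists were chosen with earlier results of these data known. Good cytosines, cores and shores were defined as given above. Class levels are means of the share of methylated reads over cytosines with at least 10 reads in the animal, and levels of single windows are pooled over reads, with no level in an animal under 10 reads. Depth per library was 64896224 to 129376223 calls.

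Groups were compared by two-sided exact permutation tests over animals, whose smallest possible p is 0.00216 for 6 against 6 and 0.00433 for 6 against 5. Classes were compared within animals by sign-flip permutation tests with 100000 resamples. All animals share the same windows, so these p-values do not cover the spread between windows of a class. Windows were tested on counts of methylated and unmethylated reads with the edgeR quasi-likelihood test (edgeR 4.0.16, R 4.3.3) in 1 fit over all groups, with Benjamini-Hochberg adjustment over 50273 windows, after a test on simulated data. Animals are the replicates, and the labels do not say whether any shared a litter or batch. Alternatives were limma (3.58.1) on arcsine values, a beta-binomial Wald test, other limits on depth and core size, pooled reads, placed chromosomes only, each library left out and a replicate block.

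Named shores were, for each comparison, the 3 with the smallest p where fewer than 3 were called, the 3 highest, lowest and most variable of those with at least 5 cytosines read 10 times in all animals, the flanks of the 3 cores with the most unequal flanks, and the 2 with the smallest p of each gene list. Gene spans came from RefSeq for MicOch1.0. Fits used numpy 2.4.6, pandas 2.3.3, scipy 1.17.1 and matplotlib 3.10.9 in Python 3.11.15.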

Additional observations from a re-analysis of the deposited data

Results flagged for a closer look

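Of 177 groups of 4 to 6 animals looked at, 46 had an animal far from the others by Dixon's test. Its rate of about 1 in 20 groups by chance holds for normally distributed values. That rate does not apply here, because a group at 0% but for 1 animal is always flagged. Some shores were also named for their small p or large range, so the 46 are no measure of an excess. Among the measures over all shores, “Parental” 3 had a step from 1 to 2 windows of 7.72 points against at most 7.17 in its group, and “Mother” 3 had a ratio of shore to remote level of 0.288 against at most 0.275. The other 44 were single shores, mostly an animal with some methylated reads in a group at or near 0%.

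In shores on unplaced scaffolds the animals that stood apart were “Father” 2 at 0.110% in the shore named for “Attacker” vs “Parental”, “Attacker” 3 at 1.74% and “Parental” 5 at 2.18% in that named for “Father” vs “Mother”, and “Attacker” 1 at 0.195% and “Parental” 6 at 0.0919% in the lowest shore. At the core with unequal flanks on a scaffold they were “Parental” 3 at 8.07%, “Father” 2 at 0.943% and “Mother” 6 at 24% on the low flank and “Father” 2 at 71.6% on the high flank.

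Among shores named for the smallest p, the animals were “Parental” 2 at Spag5 (0.946%), “Attacker” 6 at Cry1 (1.97%), “Parental” 5 and “Mother” 5 at Casp9 (6.08% and 8.59%), “Attacker” 6 and “Parental” 4 at Clip2 (50.6% and 4.88%), “Attacker” 2 and “Mother” 1 at Sdhd (0.249% and 0.919%), and “Attacker” 1 and “Father” 1 at Kpna2 (0.549% and 0.284%). Among the lowest and most variable shores they were “Parental” 2 at Tmem131l (1.52%), “Attacker” 3, “Parental” 4 and “Father” 1 at Trim8 (0.274%, 1.61% and 0.0904%), and “Father” 4 at Notch1 (12.8%, against at least 32.8% in the other fathers). On the high flank of Sirt6 “Attacker” 1 (79.8%), “Parental” 6 (57.4%) and “Mother” 3 (60.9%) were low, on its low flank “Attacker” 4 (1.02%), “Parental” 3 (1.43%) and “Mother” 1 (2.11%) were high, and “Attacker” 5 was high at Mlec (13.3%).

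In the gene lists the animals were “Attacker” 4 in the first shore of Gsk3b (8.89%), “Parental” 2 and “Mother” 4 in its second (5.6% and 3.28%), “Attacker” 2 and “Father” 5 at Chrna7 (0.139% and 2.12%), “Parental” 6 at Htr1b (2.46%), “Attacker” 3 and “Father” 1 at Gadd45b (1.38% and 4.2%), “Mother” 2 at Tdg (9.33%), “Mother” 4 at Neurog2 (25.2%), “Attacker” 3 and “Father” 1 at Blcap and Nnat (4.39% and 24.6%) and “Father” 1 at Sox9 (2.67%).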

How the results depend on the processing

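The steps from core to 1 window, to 2 windows and to remote windows kept their direction and their side of the threshold under every alternative run, with ranges of 2.80 to 7.39, 5.42 to 10.8 and 7.33 to 18.5 points. Of the other results, the differences between groups were small. The sign of the step from 1 to 2 windows changed with some settings in every comparison. The shore level kept its sign in “Attacker” minus “Parental” and in “Parental” minus “Father”. It changed sign in “Attacker” minus “Father” without “Attacker” 6, and in “Father” minus “Mother” only as a ratio to remote windows. The excess over the core kept its sign in both “Attacker” comparisons and changed it with pooled reads in the others. The causes were not tested. At an unadjusted p under 0.05 with a difference over 15 points, 7, 6, 8 and 9 shores were called in the 4 comparisons. These were 0.36%, 0.309%, 0.412% and 0.463% of shores, against 0.601%, 0.67%, 0.497% and 0.776% of all windows. The beta-binomial test called 2, 3 and 3 shores in the last 3 comparisons (0.103%, 0.154% and 0.154% of shores). Of all 50273 windows it called 28, 37 and 224 there (0.0557%, 0.0736% and 0.446%). Leaving out any library gave 0 calls in edgeR. Over the libraries left out, the shore level ranged from 0.231 to 0.775 points in “Attacker” minus “Parental”, from −0.0123 to 0.532 in “Attacker” minus “Father”, from −0.342 to −0.127 in “Parental” minus “Father” and from 0.103 to 0.318 in “Father” minus “Mother”. Its excess over the core ranged from 0.232 to 0.733, from 0.00319 to 0.505, from −0.316 to −0.119 and from 0.0993 to 0.296 in the same order. The step from 1 to 2 windows ranged from −0.330 to 0.273 (“Attacker” minus “Parental”), from −0.479 to 0.124 (“Attacker” minus “Father”), from −0.299 to 0.0340 (“Parental” minus “Father”) and from 0.0472 to 0.380 (“Father” minus “Mother”). Correlations of the deviations of animals with the same replicate number lay between −0.0987 and 0.103 over shores. They run over single shores and do not test a shift shared by whole libraries. The share of methylated calls was higher in the last than in the first replicate of every group. It was 8.32% and 38.65% in “Attacker” 1 and 6. In “Parental” voles it was 10.4% and 20.3%, in “Father” voles 10.6% and 21.1% and in “Mother” voles 10.4% and 14.3%. The median depth was lower in the last replicate of every group. Whether the replicate numbers stand for a batch was not tested. With the replicate block the shore level was −0.0123 points in “Attacker” minus “Father”. No “Father” vole had replicate number 6, and the value without “Attacker” 6 was the same, −0.0123 points. The change of sign with the block thus cannot be told apart from leaving out “Attacker” 6. In edgeR with the replicate block, 66, 73, 80 and 73 shores passed an unadjusted p under 0.05 (3.4%, 3.76%, 4.12% and 3.76%). The shares of all windows were 2.97%, 3.04%, 2.75% and 3.61%, and 0 shores were called.

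The step from 1 to 2 windows in “Attacker” minus “Parental” (−0.0340 points) was 0.495 with at least 5 reads, 0.236 and 0.128 with cores of at least 20 and 40 cytosines, 0.180 with cytosines read in all animals, 0.540 with pooled reads, 0.168 as a mean of windows and 0.147 on placed chromosomes. In “Attacker” minus “Father” (−0.183) it was 0.0354 and 0.0171 with at least 5 and 20 reads, 0.215 with cores of 20, 0.216 with cytosines read in all animals and 0.212 with pooled reads. In “Parental” minus “Father” it was 0.139 with at least 20 reads and 0.0359 with cytosines read in all animals. In “Father” minus “Mother” it was 0.926 with at least 5 reads (exact permutation test, unadjusted p = 0.013) and −0.133 with cores of 40. With pooled reads the excess over the core was 0.00712 in “Parental” minus “Father” and −0.00469 in “Father” minus “Mother”. The ratio of shore to remote level, chosen after seeing the data, differed by 0.00910 in “Attacker” minus “Parental” (p between 0.00433 and 0.0303 by exact permutation without single libraries) and by −0.00268 in “Father” minus “Mother”. Shores with few reads, of which 219 lacked a level in some animal, limit what single windows can show.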
